A study of Rattus norvegicus with 12 samples.

Results

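The genes described here are 35 mitosis and spindle genes of the rat, measured by bulk RNA sequencing in lung tissue with bronchi. They were chosen by name as mitotic kinases, cyclins, kinetochore, spindle and cytokinesis genes, and 35 of 35 were found among the 23096 genes of the deposited table. The groups were 6 control rats, given aseptic distilled water into the trachea, and 6 rats given 125 mg/kg of 2,3-butanedione (diacetyl, labelled DA) by the same route daily for 7 days, with tissue taken 24 h after the last dose. Diacetyl is a butter-flavour chemical known for airway injury in exposed workers. The labels describe every animal as a male of the Sprague Dawley strain, 8 weeks old and 300 g in weight, and give no batch. The 12 libraries were taken as 12 animals, although the labels give only replicate numbers.

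Cells that divide build up a set of mitotic gene products late in the cell cycle. Cyclin B and CDK1 drive entry into mitosis, Aurora and Polo kinases organise the spindle, the checkpoint holds anaphase until kinetochores are attached, and the anaphase-promoting complex and the central spindle complete division. Most cells of a resting adult lung do not divide, and these transcripts are widely used as a readout of proliferation. In bulk tissue, more dividing cells and more RNA per dividing cell cannot be told apart.

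Library totals ranged from 13723207 to 16271842 counts. Values are given as CPM, the count scaled to library size by TMM, where a count of 0 allows up to 3 counts, or 0.186 to 0.218 CPM by library, for counting error only. The defining lung markers were abundant in every library, with 63317 to 202495 counts of Sftpc, the surfactant protein of alveolar type 2 cells, and 5798 to 21077 counts of Ager, an alveolar type 1 marker. Reads of Y-linked genes did not follow the male labels: control replicates 1 and 2 and DA replicates 1 to 4 held 2190 to 2884 such counts, and the other 6 libraries held 1 to 9. DA replicate 4 stood apart in cell type markers, with a summed level of 9223 CPM for alveolar type 2 genes against 18484 to 24675 in the other DA libraries. It also held 990 CPM of B cell and germinal centre genes against 44.2 to 91.8 in the other DA libraries. The members' call counts are therefore also given without it and by Y-linked reads.

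Mitotic transcripts were more abundant in the lungs of DA-treated rats. In the edgeR quasi-likelihood test, with p-values adjusted by Benjamini-Hochberg over the 14517 genes tested and called under 0.05, 28 of the 35 members (80%) were higher in DA, against 8.45% of all tested genes. The fitted log2 fold change was positive for 35 of 35, against 7734 of all 14517 tested genes. It had a median of 1.77 against 0.03 over all tested genes, and ran from 0.36 for Aurka to 2.64 for Melk. No member was called lower (0 of 35 by edgeR, DESeq2 and voom, and 0 at an unadjusted p under 0.05), while 7.51% of all genes were. The 7 members that missed the threshold were Aurka, Bub1b, Birc5, Cenpe, Ube2c, Kif2c and Mki67. Apart from Aurka, these had adjusted p-values of 0.06 to 0.0732 and fold changes as large as those of many called members. DESeq2 called 34 of 35, and 13% of all genes, higher.

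In 8 members (22.9%), every DA library lay above every control library, against 3.11% of all tested genes: Melk, Pbk, Ttk, Nuf2, Cdca3, Prc1, Anln and Ect2. In 27 members all 6 DA libraries lay above the control mean, a count for which no share over all tested genes is given here. The plot of log2 fold changes orders the members by size.

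**Figure D1:**
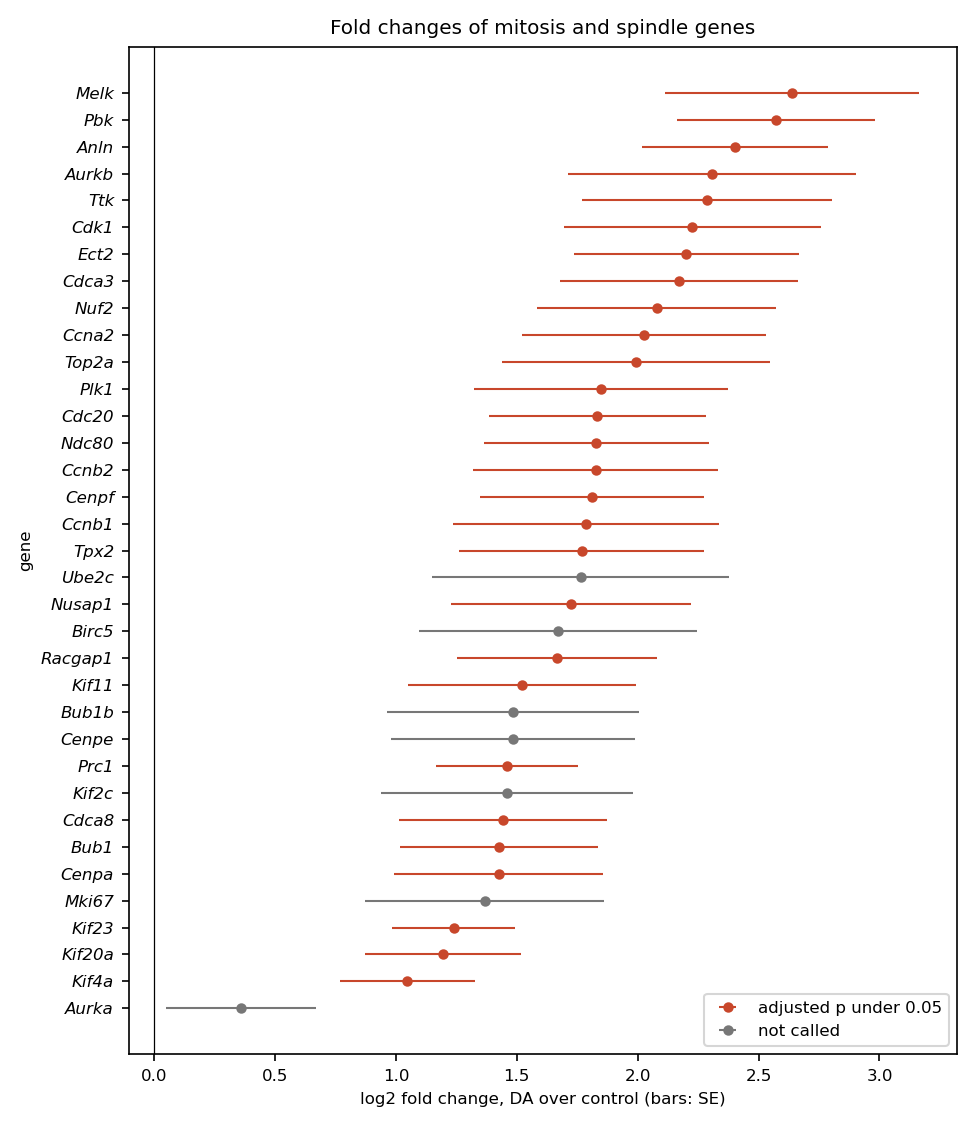
Log2 fold change of DA over control with its standard error for each of the 35 members, 6 libraries a group, ordered by fold change, with called members in red and the others in grey. All 35 lie above 0, from 0.36 for Aurka to 2.64 for Melk, and 28 pass the adjusted threshold of 0.05.

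The rise was uneven between the treated rats. The median ratio of a member to its own control mean was 7.19 in DA replicate 4, 5.46 in DA replicate 1 and 3.14 in DA replicate 6. It was 1.48, 1.58 and 1.43 in DA replicates 2, 3 and 5. Of the 35 members, 35 exceeded the highest control in DA replicates 1 and 4 and 34 in DA replicate 6, against 15, 16 and 14 in DA replicates 2, 3 and 5. The share of all tested genes above the highest control in each DA library is not given here. Controls also varied, from a median ratio of 0.516 in replicate 3, 0.622 in replicate 2 and 0.744 in replicate 1 to 1.25 in replicate 6, 1.33 in replicate 5 and 1.46 in replicate 4. The summed level of the members was 183 to 421 CPM in controls and 396 to 2027 CPM in DA, so the group ranges met, with DA replicate 5 inside the control range.

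**Figure D2:**
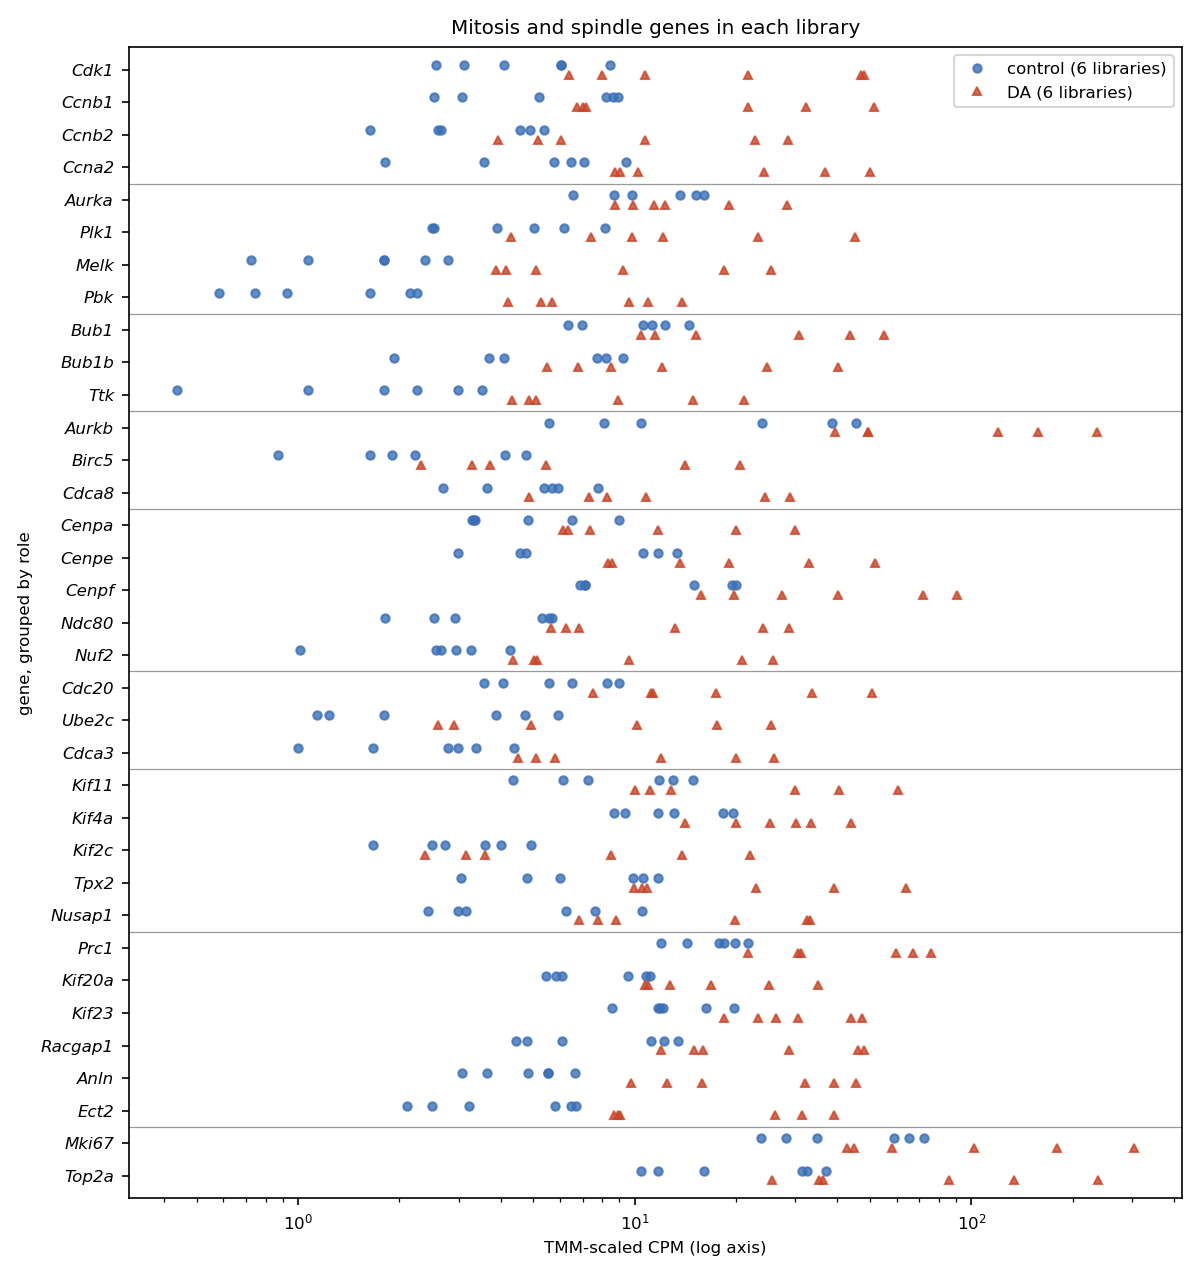
CPM of each of the 35 members on a log axis, grouped by role, with 1 blue circle for each of the 6 control libraries and 1 red triangle for each of the 6 DA libraries. In 8 members, Pbk and Anln among them, every triangle lies to the right of every circle, while Aurka, Mki67 and others overlap.

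The call count depended on single libraries and on Y-linked reads. Leaving out 1 library left 13 to 32 members called, with 35 of 35 positive in each of these fits. Their median log2 fold changes ran from 1.33 without DA replicate 4 to 1.96 without DA replicate 5, against 1.77 in the full fit. The call count was 13 without DA replicate 1, and 14, 16, 17 and 18 without control replicates 3, 2, 6 and 1. It was 20 without DA replicate 4, where the median ratio of the DA mean to the control mean was 2.53 against 3.41 with it. With Y-linked reads as a term in the fit, 8 members were called, where 3.78% of all tested genes were: Pbk, Anln, Prc1, Kif23, Ect2, Melk, Ttk and Cdca3. The fold changes moved little with that term: the median on the log2 scale was 1.74 and 35 of 35 were positive. By edgeR, 31 had an unadjusted p under 0.05 there. Among the 6 libraries without Y-linked reads, 4 control and 2 DA, the median log2 fold change was 0.98, 34 of 35 were positive and 2 were called, Anln and Pbk. That count is near the background share, 4.82% of all genes tested there. Among the 6 with them, 2 control and 4 DA, it was 2.52, 35 of 35 were positive and edgeR called 0, as it did over all genes, with 31 members at an unadjusted p under 0.05 and a smallest adjusted p of 0.501. The difference between these fold changes, tested after the data were seen as an interaction term, was positive for 35 of 35 and called for 0 by edgeR, with 3 at an unadjusted p under 0.05 and a smallest adjusted p of 0.612. The 35 signs come from the same 12 libraries and are not separate observations. The share of positive interaction signs over all tested genes is not given here. In 12 members the call stood in all 12 fits that left out a library: Cdk1, Ccna2, Melk, Pbk, Ttk, Nuf2, Cdc20, Cdca3, Prc1, Kif23, Anln and Ect2. It stood in only 3 of the 12 for Ccnb1, Bub1, Kif11 and Tpx2, in 4 for Cdca8, Cenpa and Nusap1, in 5 for Plk1 and in 6 for Top2a. The share of all tested genes whose call stood in all 12 is not given here. Over all tested genes these 12 fits called 578 to 1558 higher, against 1226 in the full fit.

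**Figure D3:**
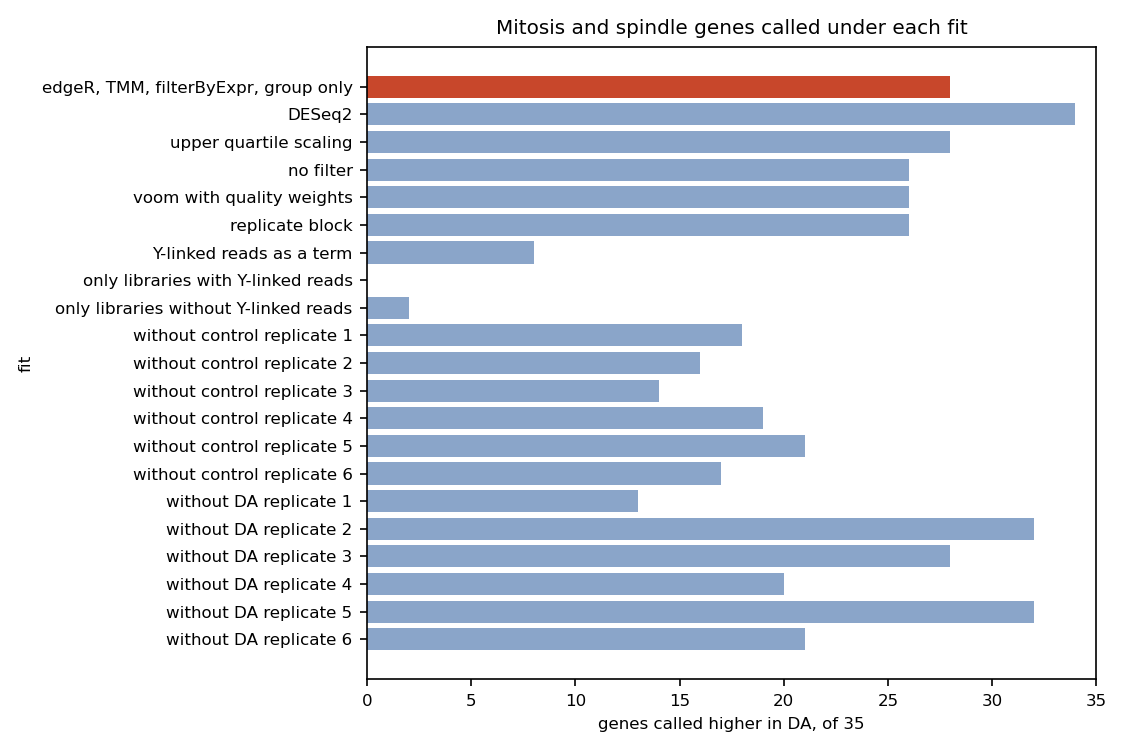
Bars give the number of the 35 members called higher in DA (adjusted p under 0.05) under each setting, with the reported fit in red. The count is 28 as reported, 34 by DESeq2, 8 with a term for Y-linked reads, 2 without the libraries that hold such reads, and 13 to 32 when 1 library is left out.

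Promoter sequences were read for 29 of the 35 members from the RefSeq table of build GRCr8, while the counts were made on mRatBN7.2. Many mitotic promoters are known to hold a cell cycle homology region, bound by the DREAM and MMB complexes, and CCAAT boxes, bound by NF-Y. Of the spellings of that region, only TTTGAA and the variant TTCGAA were searched, on both strands. Either of them stood in the 250 bases before the start of 13 of 29 members (44.8%) and of 17.4% of all 33469 promoters in the table. Members were counted by gene, with 30 promoters for 29 members, and the shares over the table by promoter. CCAAT, on both strands, was in 21 of 29 (72.4%) and 34.0% of all promoters. In the last 100 bases the shares were 10 of 29 (34.5%) against 6.18% and 19 of 29 (65.5%) against 17.1%. The letter runs can overlap, as in TTTGAATTGG of Mki67, and no match says only that the letters are absent from the window. The windows below are the 140 bases before the start, 5′ to 3′ along the gene, and show called members with matches (Cdk1, Ccnb2, Cdc20, Anln and Ect2), a called member with none (Melk, the largest rise), an uncalled member with matches (Mki67) and an uncalled member with none (Aurka). Matches did not follow the calls one to one: of 23 members with either motif in the 250 bases 19 were called, and of 6 with neither 4 were called (Melk, Bub1, Ndc80 and Nuf2, with Aurka and Kif2c not called). Capitals mark the letters of either motif, on either strand, so that the reverse complement is capitalised too.
Cdk1, chr20:19265153-19265292, plus strand: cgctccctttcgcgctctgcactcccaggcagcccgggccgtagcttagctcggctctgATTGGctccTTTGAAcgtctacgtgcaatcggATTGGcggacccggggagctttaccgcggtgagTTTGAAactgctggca
Ccnb2, chr8:79981659-79981798, minus strand: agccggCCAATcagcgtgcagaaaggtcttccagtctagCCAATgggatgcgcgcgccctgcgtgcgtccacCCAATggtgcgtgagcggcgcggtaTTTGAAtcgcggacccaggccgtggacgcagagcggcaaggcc
Cdc20, chr5:137255800-137255939, minus strand: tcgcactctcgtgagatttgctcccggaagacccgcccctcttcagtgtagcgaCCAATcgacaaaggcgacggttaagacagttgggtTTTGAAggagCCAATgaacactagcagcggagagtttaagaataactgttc
Anln, chr8:29197514-29197653, minus strand: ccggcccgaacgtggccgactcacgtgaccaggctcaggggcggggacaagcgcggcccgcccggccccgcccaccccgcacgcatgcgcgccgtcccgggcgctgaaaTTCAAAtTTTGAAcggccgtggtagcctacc
Ect2, chr2:111966627-111966766, minus strand: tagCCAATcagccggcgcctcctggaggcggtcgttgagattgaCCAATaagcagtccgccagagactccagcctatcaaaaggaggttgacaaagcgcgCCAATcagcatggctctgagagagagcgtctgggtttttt
Melk, chr5:63336011-63336150, plus strand: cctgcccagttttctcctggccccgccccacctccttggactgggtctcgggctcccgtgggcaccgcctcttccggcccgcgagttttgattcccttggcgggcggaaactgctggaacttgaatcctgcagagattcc
Mki67, chr1:199952594-199952733, minus strand: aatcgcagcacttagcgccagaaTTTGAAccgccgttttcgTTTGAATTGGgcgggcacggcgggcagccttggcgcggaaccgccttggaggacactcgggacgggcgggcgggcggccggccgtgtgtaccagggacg
Aurka, chr3:181560770-181560909, minus strand: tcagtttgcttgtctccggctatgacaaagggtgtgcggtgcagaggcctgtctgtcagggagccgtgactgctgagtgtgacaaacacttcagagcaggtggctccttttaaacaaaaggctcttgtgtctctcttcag
Cdk1 carries both kinds of letters in its window, Ccnb2 and Ect2 hold 3 CCAAT each, and Anln holds TTTGAA on both strands and no CCAAT.

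Entry into mitosis is driven by cyclin-dependent kinase 1 (Cdk1) with its A and B cyclins, and 4 of 4 of these members rose, with a median log2 fold change of 1.93. Counts by role, here and below, cover members only, 2 to 6 in a role, and stand against 8.45% of all tested genes. Of the 28 calls, 12 stood in all 12 fits that left out a library. Cdk1 (ENSRNOG00000000632) was at 2.57, 5.06 and 8.43 CPM (lowest, median and highest) in controls and 6.39, 16.2 and 48.1 CPM in DA. Only the 2 lowest DA libraries overlapped the controls, and the rise was 2.23 ± 0.53 on the log2 scale (SE, adjusted p = 0.0183, edgeR). Ccna2, cyclin A2, ranged from 1.81 to 9.43 CPM in controls and from 8.72 to 50.0 CPM in DA, with a log2 fold change of 2.02 (adjusted p = 0.0213, edgeR). The B cyclins Ccnb1 and Ccnb2, which activate Cdk1 at the onset of mitosis, rose by 1.79 and 1.83 (adjusted p = 0.044 and 0.0302, edgeR).

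Among the mitotic kinases, 3 of 4 rose, with a median log2 fold change of 2.21. Pbk, a mitotic kinase of proliferating cells, was at 0.58, 1.28 and 2.26 CPM in controls and 4.19, 7.64 and 13.9 CPM in DA. These groups did not overlap, and the log2 fold change of 2.57 ± 0.41 shared the smallest adjusted p of the members (0.00433, edgeR) with Anln. Melk, a kinase also high in proliferating cells, had means of 1.76 ± 0.774 CPM in controls and 11.02 ± 8.90 CPM in DA (SD, n = 6 each). Its rise of 2.64 ± 0.53 was the largest of the 35 (adjusted p = 0.00895, edgeR), again with no overlap. Plk1, the Polo kinase of spindle assembly, was at 2.50, 4.46 and 8.16 CPM in controls and 4.29, 10.96 and 45.2 CPM in DA, with 1.85 ± 0.53 (adjusted p = 0.0337, edgeR).

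Aurka, the Aurora kinase of the spindle poles, differed least. It was at 6.56, 11.7 and 16.1 CPM in controls and 8.71, 11.9 and 28.3 CPM in DA, a log2 fold change of 0.36 ± 0.31 (adjusted p = 0.442, edgeR). Only DA replicates 1 and 4 exceeded the highest control, and without the libraries with Y-linked reads the value was -0.31. The span of Aurka overlaps that of Fam210b in the RefSeq annotation, and with no strand setting stated some of their reads may be mixed.

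The spindle checkpoint delays anaphase, and 2 of the 3 members grouped with it rose. Ttk, the Mps1 kinase that starts checkpoint signalling, was at 0.435, 2.03 and 3.52 CPM in controls and 4.32, 7.00 and 21.1 CPM in DA. The groups did not overlap although control libraries held only 6 to 49 counts, and the log2 fold change was 2.29 ± 0.52 (adjusted p = 0.0147, edgeR). Bub1 rose by 1.43 ± 0.41 (adjusted p = 0.0352, edgeR). Bub1b, which encodes BubR1, was at 1.93, 5.89 and 9.26 CPM in controls and 5.48, 10.3 and 40.0 CPM in DA, 1.48 ± 0.52 with an adjusted p of 0.0667 by edgeR.

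The chromosomal passenger complex corrects faulty kinetochore attachment, and 2 of the 3 members that belong to it rose. Aurkb, its kinase, had the highest level per length of all members, 18.4 FPKM over the 12 libraries against a median of 2.15 for the members. It stood at 5.57, 17.1 and 45.5 CPM in controls and 39.4, 84.7 and 237 CPM in DA, a rise of 2.31 ± 0.60 (adjusted p = 0.0239, edgeR). Control replicate 2 lay inside the DA range. Birc5, which encodes survivin, was at 0.871, 2.07 and 4.74 CPM against 2.32, 4.58 and 20.5 CPM, 1.67 ± 0.57 with an adjusted p of 0.0623 by edgeR. Cdca8, which encodes borealin, rose by 1.44 ± 0.43 (adjusted p = 0.0391, edgeR).

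Aurkb varied between libraries unlike the others. Control replicate 2 was at 45.5 CPM and control replicate 1 at 5.57 CPM, a spread that gave the highest coefficient of variation among controls, 76.8%, against a median of 44.8%. DA replicate 3 was at 158 CPM of Aurkb, 7.19 times its control mean, while the members' median ratio there was 1.58. The ratio of Aurkb to Birc5 counts ran from 2.197 to 42.4 and that to Cdca8 from 1.03 to 21.6 over the 12 libraries, so the genes of this complex did not keep one ratio.

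**Figure D4:**
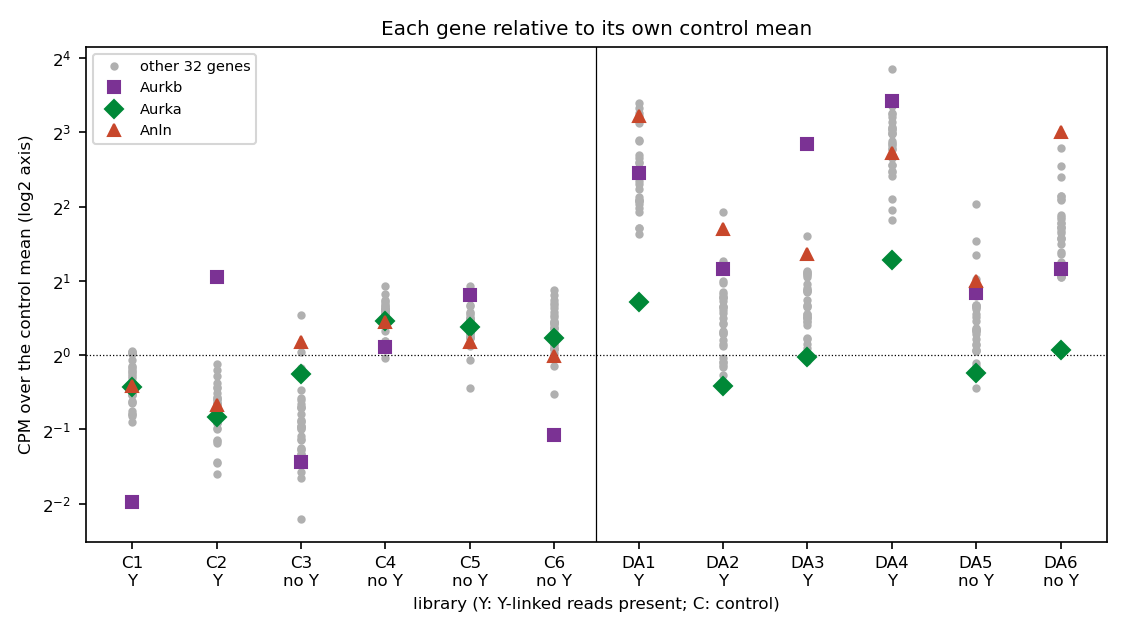
CPM of each member over its control mean in the 12 libraries on a log2 axis, marked by Y-linked reads, with Aurkb, Aurka and Anln drawn apart. Aurkb reaches 7.19 in DA replicate 3, where the median is 1.58, and Anln is higher in DA replicate 1 than in DA replicate 4.

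Kinetochores join chromosomes to spindle fibres, and 4 of 5 members with kinetochore or centromere roles rose, with a median of 1.81. Nuf2, of the Ndc80 complex, was at 1.02, 2.80 and 4.25 CPM in controls and 4.36, 7.36 and 25.8 CPM in DA. The groups did not overlap, though the lowest DA library lay just above the highest control (2.08 ± 0.49, adjusted p = 0.018, edgeR). Cenpf, a large kinetochore protein, was at 6.89, 11.1 and 20.0 CPM against 15.8, 33.7 and 90.6 CPM, a rise of 1.81 ± 0.46 (adjusted p = 0.0233, edgeR), with 2 DA libraries inside the control range. Ndc80 rose by 1.83 (adjusted p = 0.0228) and Cenpa, the centromere histone, by 1.42 (adjusted p = 0.0415, both edgeR). Cenpe, a kinetochore motor, had 1.48 with an adjusted p of 0.06 by edgeR.

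Anaphase is set off by the anaphase-promoting complex, for which Cdc20 is the activator and Ube2c the ubiquitin-conjugating enzyme. Cdc20 was at 3.56, 6.05 and 8.96 CPM in controls and 7.52, 14.4 and 50.7 CPM in DA, a rise of 1.83 ± 0.45 (adjusted p = 0.0202, edgeR). DA replicate 2 was the 1 DA library within the control range. Cdca3, which promotes degradation of the mitosis inhibitor Wee1, was at 0.998, 2.89 and 4.38 CPM against 4.50, 8.86 and 25.9 CPM, 2.17 ± 0.49 (adjusted p = 0.015, edgeR). The groups nearly touched, at 4.38 and 4.50 CPM. Ube2c was at 1.14, 2.83 and 5.92 CPM against 2.60, 7.54 and 25.4 CPM, 1.76 ± 0.62 with an adjusted p of 0.0649 by edgeR.

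Of the spindle motors and microtubule proteins, 4 of 5 rose. Kif4a, a chromosome kinesin, was at 8.66, 12.4 and 19.6 CPM in controls and 14.1, 27.7 and 43.9 CPM in DA, with the smallest rise of the group, 1.05 ± 0.28 (adjusted p = 0.0267, edgeR). Kif11, the motor that separates the spindle poles, rose by 1.52 (adjusted p = 0.0448), and Tpx2, which activates Aurora A, by 1.77 (adjusted p = 0.0346, both edgeR). Nusap1, a spindle microtubule binder, rose by 1.72 (adjusted p = 0.035, edgeR). Kif2c, which depolymerises microtubules, had 1.46 with an adjusted p of 0.0698 by edgeR.

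The central spindle and cytokinesis genes, which split the cell, all rose (6 of 6), with a median of 1.56. Anln, which encodes the contractile ring protein anillin, was at 3.07, 5.16 and 6.64 CPM in controls and 9.75, 23.9 and 45.4 CPM in DA. The groups did not overlap, the log2 fold change was 2.40 ± 0.38 (adjusted p = 0.00433, edgeR), and it was 2.11 without libraries that hold Y-linked reads (adjusted p = 0.0311, edgeR). Its DA replicate 1 value was 1.42 times that of DA replicate 4, against a median of 0.730 for the members. Prc1, which bundles central spindle microtubules, was at 12.001, 18.1 and 21.6 CPM against 21.8, 45.5 and 75.9 CPM, 1.46 ± 0.29 (adjusted p = 0.00927, edgeR), and its groups met at 21.6 and 21.8. Kif20a, a kinesin of the midzone, averaged 8.12 ± 2.63 CPM against 18.6 ± 9.69 CPM (SD, n = 6 each), a log2 fold change of 1.19 ± 0.32 (adjusted p = 0.028, edgeR). Ect2, the exchange factor that activates RhoA, rose by 2.201 ± 0.47 (adjusted p = 0.0114), its partner Racgap1 by 1.67 ± 0.41 (adjusted p = 0.0208), and the kinesin Kif23 by 1.24 ± 0.26 (adjusted p = 0.0104, all edgeR).

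The mitotic chromosome genes were the proliferation marker Mki67 and the topoisomerase Top2a. Mki67 was at 23.7, 46.9 and 72.5 CPM in controls and 42.6, 80.1 and 304 CPM in DA. DA replicates 2, 3 and 5 lay within the control range, and the log2 fold change of 1.37 ± 0.49 did not pass (adjusted p = 0.0732, edgeR). Top2a was at 10.4, 23.7 and 36.9 CPM against 25.6, 60.9 and 238 CPM, 1.99 ± 0.55 (adjusted p = 0.0307, edgeR), also with DA replicates 2, 3 and 5 within the control range.

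Per unit of gene length the members were low, from 0.670 FPKM for Ttk to 18.4 FPKM for Aurkb, with 15 under 2 FPKM. In all, 8 members overlap a protein-coding neighbour in the RefSeq annotation, such as Plk1 with Ern2, Cdca3 with Usp5, Kif20a with Cdc23 and Anln with Matcap2, and with no strand setting stated their reads may be mixed. DA replicate 4 held the highest value for 28 members and DA replicate 1 for 7: Pbk, Cdca3, Kif4a, Nusap1, Prc1, Anln and Ect2. The lowest value fell in control replicate 3 for 20 members, replicate 2 for 11 and replicate 1 for 4.

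The other mitotic genes, S phase genes, cell cycle regulators, and G1 and arrest genes are lists chosen with earlier results of these data known. Their counts stand against 8.45% of all tested genes called higher and 7.51% called lower. Of 75 tested other mitotic genes, 42 rose (56%) and 1, Mad1l1, fell by 0.41 on the log2 scale, with a median of 1.36. Ska2, a kinetochore gene that overlaps Prr11, rose by 1.15 ± 0.17 (adjusted p = 0.00328) and Oip5, a centromere loading factor, by 2.15 ± 0.38 (adjusted p = 0.00554, both edgeR). Ska2 was at 6.82 to 11.4 CPM in controls and 15.8 to 26.9 CPM in DA. Zwint, a kinetochore gene, had 0.32 with an adjusted p of 0.0515 by edgeR.

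Of 45 S phase genes, 29 rose (64.4%), with a median of 1.06. By edgeR 0 fell, with 0 at an unadjusted p under 0.05, and DESeq2 and voom also called 0. Orc6, of the origin recognition complex, was at 1.78 to 2.85 CPM in controls and 5.10 to 7.71 CPM in DA, 1.38 ± 0.19 (adjusted p = 0.00292, edgeR). Dscc1, which loads the replication clamp, rose by 2.29 ± 0.35 (adjusted p = 0.00343), the clamp Pcna by 0.71 (adjusted p = 0.0251) and Dut, which removes dUTP, by 0.80 (adjusted p = 0.00668, all edgeR).

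Of 20 tested cell cycle regulators, 3 rose (15%) and 1 fell, with a median log2 fold change of 0.16. These counts are small and near the shares over all tested genes, 8.45% and 7.51%, so they set the list as a whole apart in neither direction. Mybl2, the B-Myb subunit of the MMB activator, rose by 1.99 (adjusted p = 0.0249), the repressor E2f7 by 2.71 (adjusted p = 0.0139) and Tfdp1, the E2F partner, by 0.58 (adjusted p = 0.0122, all edgeR). Rbl2, p130 of the DREAM repressor complex, was lower by edgeR (adjusted p = 0.00644), at 102 to 115 CPM in controls and 66.6 to 96.6 CPM in DA. E2f4, a DREAM subunit, had 0.20 (adjusted p = 0.266) and Rb1 -0.19 (adjusted p = 0.12, both edgeR). Foxm1, a mitotic gene activator, was below the count filter, at 0 to 3 counts in controls and 1 to 13 in DA.

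Of 25 G1 and arrest genes, 6 rose (24%) and 3 fell, with a median of 0.10. Among those that rose were the kinases Cdk2 (0.44) and Cdk4 (0.43), the CDK inhibitor Cdkn2c (1.03), the phosphatase Cdkn3 (1.48) and the antiproliferative Btg3 (0.52), all on the log2 scale. Those that fell were the CDK inhibitor Cdkn1b, the stress-response gene Sesn1 and Ccng2, a cyclin of resting cells (adjusted p = 0.00572, edgeR). Ccnd1, cyclin D1, had 0.78 (adjusted p = 0.0526) and Cdkn1a, which encodes p21, had -0.58 (adjusted p = 0.285, both edgeR). Btg1 and Btg2, which are antiproliferative, had -0.16 and -0.23 (adjusted p = 0.474 and 0.424, edgeR).

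**Figure D5:**
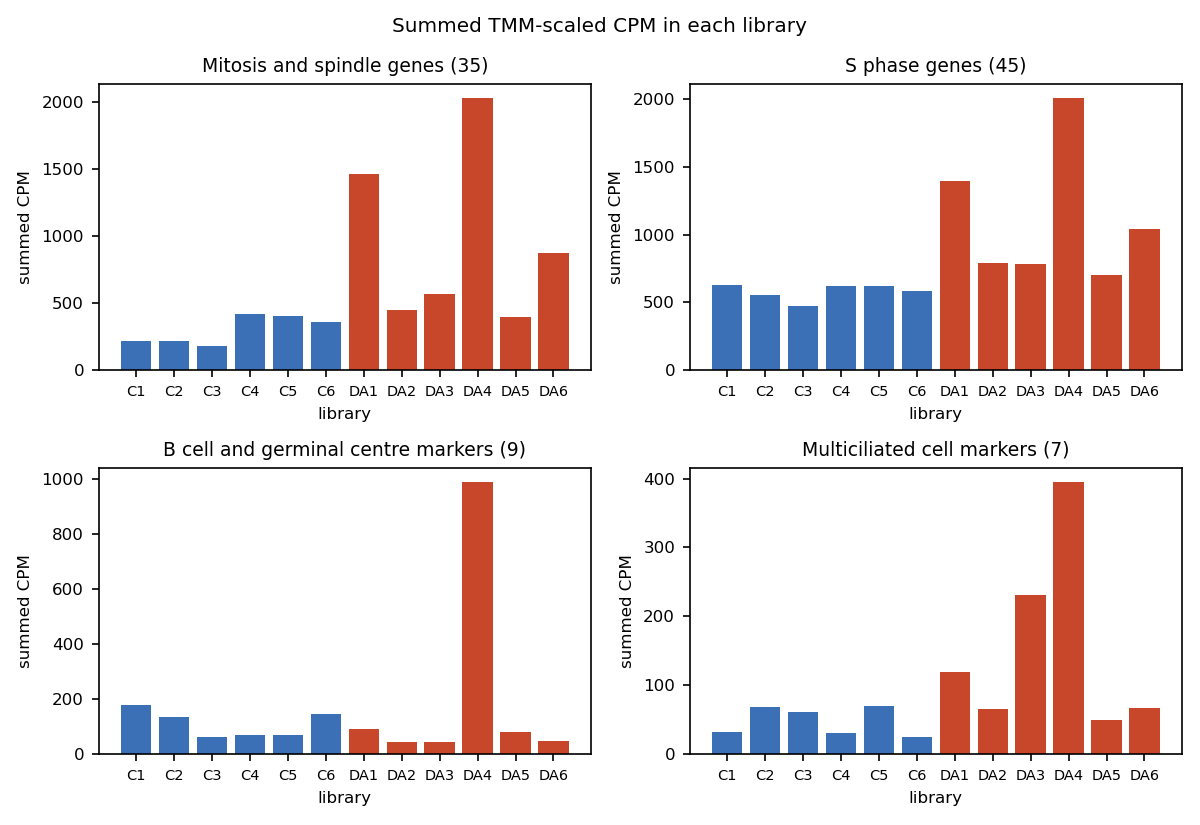
Summed CPM as bars for each control (blue) and DA (red) library for the members, the S phase genes, the B cell list and the multiciliated list. DA replicate 4 is highest in all of them, at 2027 CPM for the members and 990 CPM for the B cell list.

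Markers of other cell types moved in some of the same libraries. The lists hold few genes, and over all tested genes 8.45% were called higher and 7.51% lower. Multiciliated genes summed to 25.4 to 70.4 CPM in controls and 48.8 to 395 CPM in DA, highest in DA replicates 4, 3 and 1, with 3 of 6 tested genes higher. B cell genes summed to 61.4 to 178 CPM in controls, and the high 990 CPM stood in DA replicate 4 alone, where Krt5, a basal cell keratin, was at 839 counts (at most 2 elsewhere). Fibroblast genes summed to 1782 to 2878 CPM in controls and 2807 to 5616 CPM in DA, with 3 of 7 higher and 2 lower. Club and secretory genes were higher in 4 of 6 and basal genes in 1 of 4. The club marker Scgb1a1 overlapped between groups, at 33466 to 87607 counts in controls and 21148 to 174002 in DA, lowest in DA replicate 4. The basal marker Tp63 was at 221 counts in DA replicate 4 and at most 28 elsewhere. Alveolar macrophage genes were lower in 2 of 4, thymocyte genes in 2 of 3 and T and NK cell genes in 1 of 6. The defining thymocyte markers Rag1, Dntt and Ptcra were not among the 3 tested. They peaked in DA replicate 4 at 39, 42 and 12 counts, against at most 2, 11 and 7 elsewhere. In the B cell, plasma cell, alveolar type 1, alveolar type 2, endothelium and erythroid lists edgeR called 0 of 33 genes, with 3 at an unadjusted p under 0.05, 2 called by DESeq2 and 4 by voom. The macrophage marker Marco was at 0 in most libraries. The part of these cells, of DA replicate 4 and of Y-linked reads in the members' rise was not tested beyond the values given.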

How the data were processed

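RNA from the lung tissue of 12 rats, 6 a group, was sequenced on an Illumina NovaSeq after Trizol extraction, per the labels' protocols. Per the submitters' processing notes, HISAT2 2.2.1, HTSeq 2.0.2 and mRatBN7.2 were used, and the strand setting, annotation release and filters are not given in the sources used here. The deposited table holds raw read counts per gene for each library. It also holds FPKM values by the authors, equal to the count over gene length and library total within a relative deviation of 7.01e-14. Of 23096 genes, 3108 carry no name and 3834 have 0 counts in every library.

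The 35 members and the other lists were chosen with earlier results of these data known. Members were matched by name. Counts were tested with edgeR 4.0.16 in R 4.3.3 (filterByExpr, TMM, quasi-likelihood F test, group only, two-sided, Benjamini-Hochberg adjustment over 14517 genes), and tested on simulated data first. Standard errors were the log2 fold change over the square root of F, and the biological coefficient of variation was 31.0%. The p-values set the group difference against the spread between these libraries. DESeq2 1.42.0, voom with quality weights (limma 3.58.1), upper quartile scaling, no filter, a replicate block, Y-linked reads as a term or subset (summed level over 1 CPM) and each library left out were alternatives. Values are given for all members. From each other list they are given for the 2 genes with the smallest adjusted p and the 2 most abundant, plus Foxm1, Mybl2, Cdkn1a and Ccnd1. Mad1l1 and the calls listed by name in the other lists were chosen after their values were seen. E2f1 was not analysed here, and some genes of the lists are counted but not reported by name. Cdc45 was named on 2 rows and left out. The 13 cell type marker lists were described by counts and summed CPM. Promoters came from a RefSeq table of build GRCr8 with matches searched by letters, and 6 members without an entry (Ccna2, Pbk, Aurkb, Ube2c, Tpx2 and Racgap1) are named only.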

Additional observations from a re-analysis of the deposited data

Results flagged for a closer look

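In 4 of 106 groups of 6 libraries examined, 1 library lay far from the rest relative to the group's range, which chance gives in about 1 group in 20. None of the 4 concerned a mitosis and spindle member. Zwint was at 73.6 CPM in control replicate 1, and Dscc1 at 1.78 CPM in control replicate 2. Cdkn1a was at 57.0 CPM in DA replicate 3 and Btg2 at 332 CPM in DA replicate 6.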

How the results depend on the processing

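Upper quartile scaling, no count filter and voom left the number of higher members within 1.5 times, at 28, 26 and 26. Over all genes, 1226 were higher and 1090 lower. DESeq2 gave 1888 and 1645, voom 2034 and 1932, and the term for Y-linked reads 549 and 572. Libraries with Y-linked reads alone gave 0 and 0, and those without gave 716 higher. Leaving out 1 library gave 578 to 1558 higher and 578 to 1461 lower, with 777, 597, 578, 742, 635 and 599 higher without control replicates 2 to 6 and DA replicate 1. For the members called higher, these gave 8 with the term, 0 with Y-linked reads, 2 without and 13 to 32 leaving out 1 library. Other mitotic genes called higher numbered 13, 0, 8 and 18 to 49, and S phase genes 15, 0, 8 and 16 to 35. The 1 other mitotic gene called lower became 0 under upper quartile scaling, the replicate block and both Y-linked subsets, and 0 to 1 leaving out 1 library. Regulators called higher numbered 5 by DESeq2, 1 with the term, 0 in either subset and 2 to 4 leaving out 1 library, and those lower 0 with Y-linked reads and 1 to 2. G1 and arrest genes called higher numbered 3 under the replicate block, 3 with the term, 0 with Y-linked reads and 3 to 8, and those lower 0 with Y-linked reads, 1 without and 3 to 4. Without libraries that hold Y-linked reads, Aurka was at -0.31 and Btg2 at 0.038. With only those, Cdkn1a was at 0.89. The cause was not tested.

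The labels do not say whether replicate numbers pair the groups, and correlations between libraries cannot settle it. Same-number deviations correlated at 0.110, 0.180, 0.3004, 0.0393, -0.256 and 0.00321. With the replicate block, 26 members and 677 of all genes were higher. Control replicates 1, 2 and 3 correlated best with their own number, 3 of 6, a hint from the data only. Low members held few counts, such as 6 to 49 for Ttk in controls, and the effect of depth on the calls was not tested.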
